A study of Mus musculus with 17 samples.

Results

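A set of 10 mediators of inflammation, secreted or bound to the membrane of myeloid and lymphoid blood cells, was followed across 17 expression arrays of sorted mouse bone marrow cells. The 10 genes were chosen by name, with earlier results of these data known. Every probe set whose single symbol in the array platform's annotation was one of them was taken. This gave 13 of the 45037 probe sets that are not controls, 2 each for Ccl6, Ccl9 and Thbs1 and 1 each for the other 7 genes. All 13 passed the filter on dim probe sets, so all 10 genes were among the 14245 genes tested. Another probe set carries both Pald1 and Thbs1 and was left out by the rule.

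Cells of 5 groups were measured in 2 array batches. Batch 1 held bone marrow of Pig-a knock-out mice, sorted into cells without glycosylphosphatidylinositol (GPI) anchored proteins (knock-out GPI-negative, 3 arrays) and cells with them (knock-out GPI-positive, 3 arrays). Batch 2 held 4 arrays of GPI-negative cells from C57BL/6 mice that had received knock-out marrow (knock-out grafts), 3 arrays of GPI-positive cells from C57BL/6 mice that had received wild-type marrow (wild-type grafts), and 4 arrays of GPI-positive cells from wild-type C57BL/6 mice without a transplant. All cells came from femurs and tibias and were sorted with fluorescent antibodies to CD24, CD48 and Gr-1. The knock-out marrow for transplantation was exposed to 10 nM aerolysin, a toxin that lyses cells with GPI-anchored proteins, for 30 minutes, and its recipients had received 9 Gy of irradiation. No such treatment is given by name for the recipients of wild-type marrow, so between the recipient groups GPI status, donor genotype and graft treatment cannot be told apart. What drives the deletion, and the age and sex of the mice, is not stated. The arrays of a group are called biological replicates with no animal named, so that p-values reflect only the spread from array to array, which may be technical.

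Chemokines are small secreted proteins that bind G protein-coupled receptors on leukocytes and direct their migration. Ccl3, Ccl4, Ccl6 and Ccl9 belong to the CC class, which attracts monocytes, lymphocytes and other leukocytes, and Cxcl2 belongs to the CXC class and recruits neutrophils through Cxcr2. Il1b and Tnf encode the cytokines interleukin 1 beta and tumour necrosis factor, which activate NF-kappaB, the transcription factor that in turn induces many chemokine genes. Ltb encodes lymphotoxin beta, a membrane protein of lymphocytes that holds lymphotoxin alpha at the cell surface. Osm encodes oncostatin M, a cytokine of the interleukin 6 family, and Thbs1 encodes thrombospondin 1, a matrix glycoprotein of platelets and macrophages. In marrow, neutrophils, monocytes, basophils and lymphocytes are among the known sources of these proteins.

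Several of the genes are neighbours in the RefSeq annotation of assembly GRCm38.p6. On chromosome 11, Ccl9, Ccl6, Ccl3 and Ccl4 follow each other with 0 other protein-coding genes between adjacent members, and on chromosome 17 Tnf and Ltb are adjacent in the same sense. Promoter sequences from RefSeq (GRCm38.p6, 250 bases before to 50 after the start of the gene) matched 7 of the 10 genes, namely Cxcl2, Ccl3, Ccl6, Ccl9, Il1b, Tnf and Ltb. They were searched on both strands for the kappaB consensus (the motif bound by NF-kappaB), for the AP-1 motif TGANTCA and for the STAT motif TTCNNNGAA, and on the gene's strand for the TATA box TATAAA. A kappaB match was found in 3 of the 7, an AP-1 match in 1, a STAT match in 1 and a TATA box in 3. Among all 32851 promoters of the same length the shares were 5.8% for kappaB, 7.81% for AP-1, 8.3% for the STAT motif and 8.32% for TATAAA. The 3 promoters with a kappaB match are shown with that of Ccl3, a chemokine gene that rose with Cxcl2 and Ccl9 in cells of knock-out grafts and whose window held none of these motifs. The 250 bases before the start are printed 5′ to 3′ on the gene's strand in build GRCm38.p6, with kappaB matches and TATA boxes in capitals.
Cxcl2 (chr5:90903649-90903898, plus strand): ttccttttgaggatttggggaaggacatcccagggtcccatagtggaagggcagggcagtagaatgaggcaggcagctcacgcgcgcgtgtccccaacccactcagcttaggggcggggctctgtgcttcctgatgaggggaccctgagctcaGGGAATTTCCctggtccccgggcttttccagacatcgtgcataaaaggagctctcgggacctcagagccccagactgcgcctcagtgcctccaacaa
Ccl9 (chr11:83578637-83578886, minus strand): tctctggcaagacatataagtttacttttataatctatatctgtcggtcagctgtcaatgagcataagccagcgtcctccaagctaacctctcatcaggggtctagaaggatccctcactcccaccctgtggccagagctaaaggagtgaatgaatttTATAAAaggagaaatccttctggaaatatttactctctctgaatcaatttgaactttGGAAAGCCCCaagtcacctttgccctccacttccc
Ltb (chr17:35194257-35194506, plus strand): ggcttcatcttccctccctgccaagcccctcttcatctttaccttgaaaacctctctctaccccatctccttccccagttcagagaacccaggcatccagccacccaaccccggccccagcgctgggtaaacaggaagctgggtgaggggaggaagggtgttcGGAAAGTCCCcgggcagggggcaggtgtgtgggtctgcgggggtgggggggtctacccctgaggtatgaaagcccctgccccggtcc
Ccl3 (chr11:83649379-83649628, minus strand): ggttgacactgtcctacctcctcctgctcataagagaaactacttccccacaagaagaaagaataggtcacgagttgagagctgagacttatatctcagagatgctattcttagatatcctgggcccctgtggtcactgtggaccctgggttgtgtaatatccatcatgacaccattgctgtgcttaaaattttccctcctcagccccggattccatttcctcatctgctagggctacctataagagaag
The kappaB match of Cxcl2 lay 97 to 88 bases before the start, that of Ltb 87 to 78 bases and that of Ccl9 35 to 26 bases, the latter 2 on the opposite strand. Ccl9 also had a TATA box 92 to 87 bases and an AP-1 match 53 to 47 bases before the start, and no match overlapped another. The TATA boxes of Il1b and Tnf lay 31 to 26 and 29 to 24 bases before the start. A match describes letters in this window and says nothing of whether the factor was bound.

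The targeted gene checked the labels. On its brighter probe set Piga lay between 1.65 and 1.92 on the knock-out GPI-negative arrays against 3.54 to 4.11 on the GPI-positive ones, and between 0.28 and 0.92 in recipients of knock-out marrow against 4.02 to 4.30 on the other 7 arrays of batch 2. All values are log2 values centred on a common array median, and comparisons were made within a batch. The deposited values carry no stated log base and were taken as base 10, on which every log2 value and fold change rests. No marker of the marrow cell types was at 0 on all arrays of any group, which does not show that each was expressed. Some averaged below the 40th percentile, such as Xcr1 in every group and 4 of 7 stromal markers in wild type. No neutrophil, monocyte, B cell or plasmacytoid dendritic cell marker did so. Some measures of the arrays moved with the knock-out fractions. The hybridisation controls were at 8.02 to 8.66 in GPI-negative and 6.11 to 6.59 in GPI-positive cells, and the Gapdh 3′ minus 5′ difference at -0.29 to -0.04 and -1.03 to -1.0. Their part in the knock-out results was not tested. The 3 knock-out GPI-positive arrays lay close together (median SD over the brighter genes 0.0636, against 0.136 to 0.174 in the other groups), so knock-out results are also given with these 3 arrays averaged into 1 sample, where the lone sample is assumed to vary like the other groups.

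In knock-out marrow, the myeloid mediators Cxcl2, Osm, Il1b and Thbs1 were lower in GPI-negative than in GPI-positive cells, by 1.96-fold to 2.97-fold, and the lymphoid Ltb was 2.16-fold higher. Between the transplant recipients all called differences were positive: cells of knock-out grafts had more Ccl3, Ccl9 and Osm signal than those of wild-type grafts, by 1.94-fold to 2.30-fold, and again more Ltb. Against untransplanted wild-type marrow the same cells were higher in Cxcl2, Osm, Il1b, Ccl9 and Ccl3, by 2.51-fold to 5.99-fold. The calls of Il1b in the knock-out and of Osm between the recipients barely passed. Fewer cells of a type and less RNA per cell cannot be told apart in these bulk samples.

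**Figure D1:**
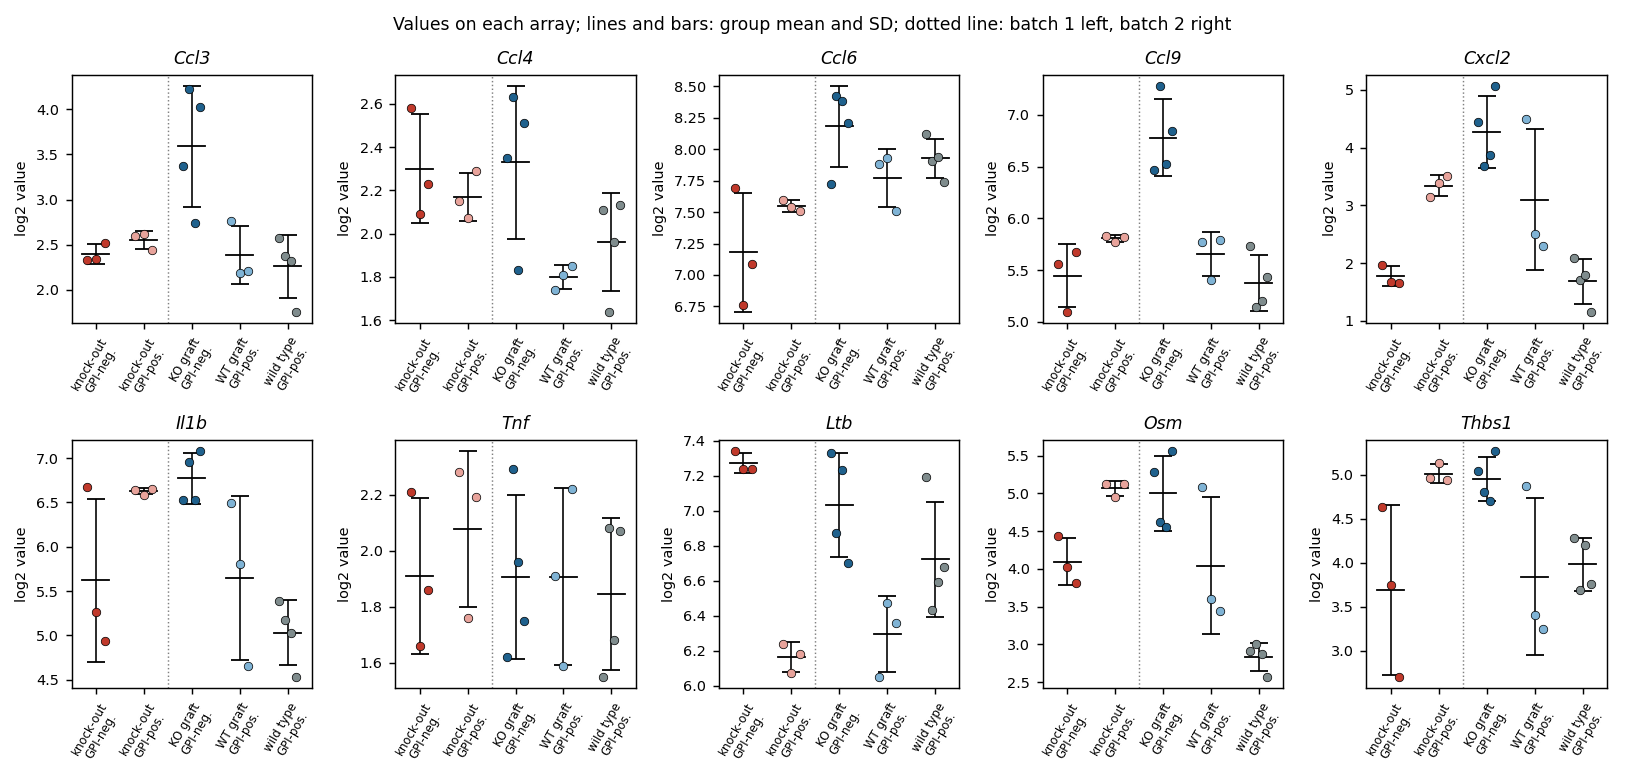
Log2 values (y axis, centred on a common array median) of the brightest probe set of each of the 10 genes on each of the 17 arrays, by group (x axis), with the group mean and SD as black lines. Cxcl2 lies between 1.66 and 1.97 in knock-out GPI-negative cells and between 3.68 and 5.07 in recipients of knock-out marrow, below and above the medians of their comparison groups, while the 5 groups overlap for Tnf.

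Of the 10 genes, 4 fell and 1 rose in the knock-out comparison in limma's fit (adjusted p below 0.05 over all genes tested). Over all genes 29.5% were called in this comparison, 14.8% lower and 14.8% higher. The median log2 difference of the 10 genes was -0.37, beside -0.01 over all genes. Between the recipients 4 rose and 0 fell, where 7.39% of all genes were called, 3.95% higher and 3.45% lower, and the median was 1.04 beside -0.01. Cells of knock-out grafts against wild type gave 5 higher and 0 lower, where 12.4% of all genes were called, 6.84% higher and 5.55% lower (median 1.15 beside 0.02). Wild-type grafts against wild type gave 0 calls, with 3 of the 10 genes (Cxcl2, Osm and Ltb) at an unadjusted p below 0.05 in limma's fit, where 0.842% of all genes were called, 0.449% higher and 0.393% lower (median 0.09 beside 0.02). The remaining 7 genes differed by -0.16 to 0.61 there. Groups did not overlap for 5, 3, 6 and 2 of the 10 genes in these 4 comparisons in turn, where they did not for 43.2%, 15.5%, 16.4% and 13.9% of all genes. For the genes called between the recipients, the exact two-sided permutation p was 0.02857 (Ccl9), 0.05714 (Ltb), 0.08571 (Ccl3) and 0.1429 (Osm). It was 0.02857 for each gene called in knock-out grafts against wild type. In the knock-out this p cannot fall below 0.1, and it was 0.4 for Il1b. The comparisons of batch 2 share arrays, so they are not independent of each other. Because the genes were chosen with earlier results known, their counts and medians beside those of all genes describe the set and do not test it. With the knock-out GPI-positive arrays averaged into 1 sample, 1 of the 10 genes, Ltb, was still called in the knock-out.

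**Figure D2:**
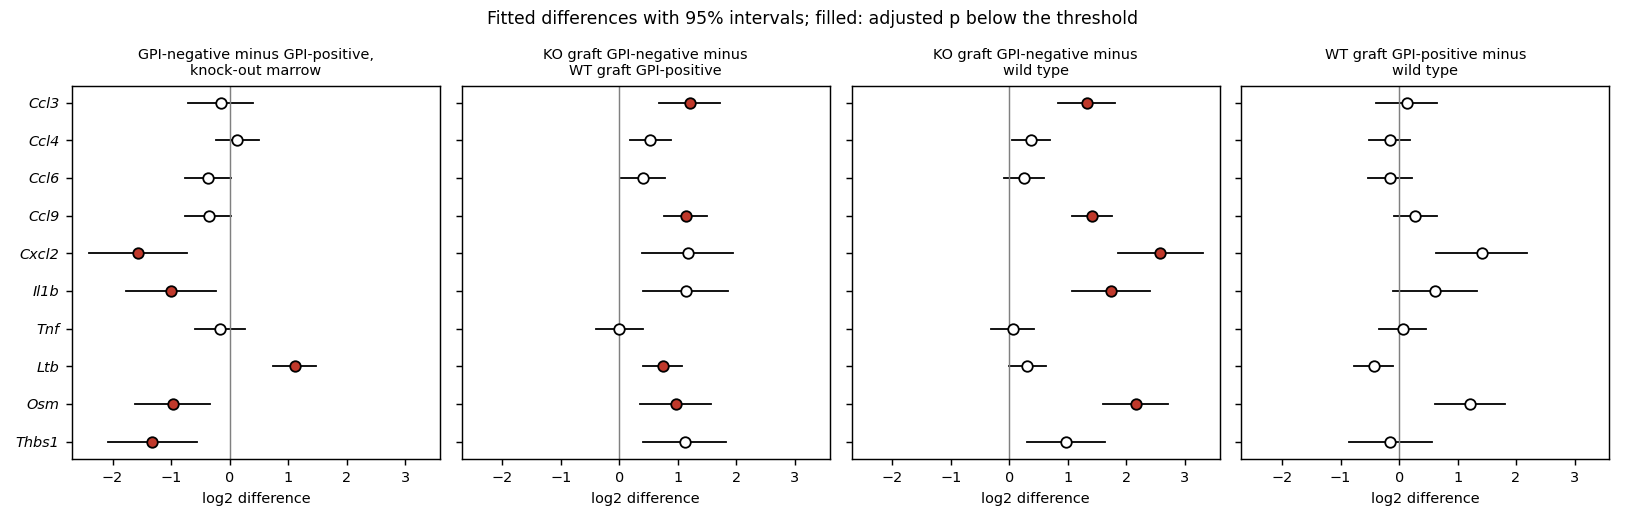
Fitted log2 differences (x axis) with 95% intervals for the 10 genes (y axis) in 4 comparisons within a batch; filled points passed the threshold of 0.05. The knock-out panel has 4 filled points left of 0 and that of Ltb at 1.11 on the right, and every filled point of the other panels lies right of 0.

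Among the CC chemokines, Ccl9, a macrophage inflammatory protein of myeloid cells, gave the clearest difference. Its brighter probe set read 6.47, 7.28, 6.53 and 6.84 in recipients of knock-out marrow, 5.77, 5.41 and 5.79 in recipients of wild-type marrow and 5.73, 5.14, 5.20 and 5.43 in wild type. Every array of the knock-out grafts lay above every array of both other groups. The log2 difference was 1.13 ± 0.18 (SE) between the recipients (adjusted p = 0.000334) and 1.41 ± 0.16 against wild type (adjusted p = 9.13e-06), and in both comparisons the exact two-sided permutation p was 0.02857, the smallest the design allows. The dimmer probe set gave 1.30 ± 0.16 and 1.43 ± 0.15. Both calls held without any single array. In the knock-out, values were 5.56, 5.10 and 5.68 in GPI-negative and 5.83, 5.77 and 5.82 in GPI-positive cells. These groups did not overlap, but the difference of -0.36 ± 0.19 did not pass (adjusted p = 0.164).

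Ccl3, the chemokine also called macrophage inflammatory protein 1 alpha, read 3.37, 4.22, 2.74 and 4.02 in recipients of knock-out marrow, 2.76, 2.19 and 2.21 in recipients of wild-type marrow and 2.58, 2.38, 2.32 and 1.76 in wild type. Replicate 3 of the knock-out grafts fell just below the highest array of the wild-type grafts, and all 4 lay above wild type. The differences were 1.20 ± 0.25 (adjusted p = 0.00428) and 1.33 ± 0.23 (adjusted p = 0.000573), and both calls held without any single array. In the knock-out it lay between 2.33 and 2.52 in GPI-negative and between 2.44 and 2.62 in GPI-positive cells, a difference of -0.15 with a 95% interval from -0.71 to 0.40. Signals of basophil and mast cell markers were high on the same arrays: their summed linear level was 354, 549, 244 and 630 on replicates 1 to 4 of the knock-out grafts, 180 to 215 in the wild-type grafts and 137 to 164 in wild type. Of the 8 markers tested 4 rose between the recipients and 6 rose against wild type, and their part in the Ccl3 result was not tested.

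Ccl4, or macrophage inflammatory protein 1 beta, whose gene adjoins Ccl3, read 2.35, 2.63, 1.83 and 2.51 in recipients of knock-out marrow against 1.74, 1.81 and 1.85 in recipients of wild-type marrow. Its difference of 0.53 ± 0.17 missed the threshold (adjusted p = 0.059) and passed without replicate 3 of the knock-out grafts (0.70, adjusted p = 0.00598). Against wild type it was 0.37 ± 0.15 (adjusted p = 0.137; 0.54 and 0.0153 without that array), and in the knock-out 0.13 ± 0.18. Ccl6, a chemokine of neutrophils, eosinophils and macrophages, was bright in every group, at 6.76 to 7.69 and 7.51 to 7.60 in the knock-out fractions, 7.72 to 8.42 and 7.51 to 7.93 in the recipients and 7.74 to 8.12 in wild type. No difference of its brighter probe set passed within a comparison, with values of -0.37 ± 0.19 in the knock-out, 0.41 ± 0.18 between the recipients and 0.25 ± 0.17 against wild type. Without knock-out GPI-negative replicate 1 the knock-out difference was -0.62 and passed (adjusted p = 0.0128), and without knock-out graft replicate 1 that between the recipients was 0.56 and passed (0.0437). The probe sets disagreed on the call in the knock-out, where the dimmer Ccl6 probe set was at 5.70 to 6.39 in GPI-negative and 6.70 to 6.79 in GPI-positive cells, a difference of -0.81 ± 0.20 (adjusted p = 0.00503 over probe sets). Eosinophil markers fell in 5 of 5 cases in the knock-out and in 1 of 5 in the other 2 comparisons, and their part in the Ccl6 values was not tested.

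Cxcl2, the neutrophil attractant, changed most among the 10 genes against wild type. It read 4.45, 3.68, 3.88 and 5.07 in recipients of knock-out marrow, 4.50, 2.51 and 2.29 in recipients of wild-type marrow and 2.09, 1.70, 1.80 and 1.16 in wild type. All recipients lay above wild type, and replicate 1 of the wild-type grafts lay among the knock-out grafts. The rise against wild type was 5.99-fold (log2 2.58 ± 0.35, adjusted p = 4.08e-05). Between the recipients the difference of 1.17 ± 0.38 missed the threshold (adjusted p = 0.0639). Without that replicate 1 it was 1.87 (adjusted p = 0.00036) and without knock-out graft replicate 2 it was 1.37 (0.0475), but without wild-type graft replicate 3 it was 0.76 (0.359). Wild-type grafts against wild type differed by 1.41 ± 0.38 (adjusted p = 0.0809), with no overlap between the groups, by 1.82 without wild-type graft replicate 3, when it passed (0.0426), and by 0.71 without replicate 1 (0.322). In knock-out marrow the order was the other way round, with 1.97, 1.68 and 1.66 in GPI-negative and 3.14, 3.38 and 3.51 in GPI-positive cells. Cxcl2 fell there 2.97-fold (log2 -1.57 ± 0.40, adjusted p = 0.00508), and the adjusted p was 0.102 with the GPI-positive arrays averaged.

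Il1b, which encodes a pyrogenic cytokine stored as a precursor in myeloid cells, read 6.67, 5.26 and 4.94 in knock-out GPI-negative and 6.64, 6.59 and 6.65 in GPI-positive cells. Replicate 1 of the GPI-negative cells lay at the level of the GPI-positive cells and the other 2 lay below. The fall of 1.01 ± 0.37 on the log2 scale barely passed (adjusted p = 0.0467), and it passed in 5 of 12 alternative settings of the processing. It was 1.53 without that replicate 1 (adjusted p = 0.00173) and did not pass without any other array of the comparison, at adjusted p = 0.148 without replicate 2 and 0.233 without replicate 3 of the GPI-negative cells, and 0.101, 0.0922 and 0.102 without GPI-positive replicates 1, 2 and 3. Without GPI-negative replicate 3 the difference was -0.66, and with the GPI-positive arrays averaged the adjusted p was 0.295. In recipients of knock-out marrow Il1b stood at 6.53, 6.96, 6.53 and 7.08, above 6.49, 5.80 and 4.65 in recipients of wild-type marrow and 5.39, 5.17, 5.03 and 4.53 in wild type, with no overlap in either comparison. Against wild type it rose 3.34-fold (log2 1.74 ± 0.32, adjusted p = 0.000938). Between the recipients the difference of 1.13 ± 0.35 missed the threshold (adjusted p = 0.0531) although the exact permutation p was 0.02857, and it passed without replicate 1 of the wild-type grafts (1.55, adjusted p = 0.0102) but was 0.63 without replicate 3 of that group (0.369).

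Tnf gave no difference past the threshold. Its values ran from 1.55 to 2.29 over all 17 arrays, with group means near the 60th percentile of an array's probe sets, and each group overlapped each other group of its batch. The 95% interval of the difference was -0.59 to 0.27 in the knock-out, -0.40 to 0.40 between the recipients and -0.31 to 0.43 against wild type, which leaves room for changes of that size. Ltb, the neighbour of Tnf, behaved otherwise. It read 7.34, 7.24 and 7.24 in knock-out GPI-negative and 6.24, 6.07 and 6.18 in GPI-positive cells, a rise of 1.11 ± 0.17 (adjusted p = 4.44e-05) that held without any single array and with the GPI-positive arrays averaged. Between the recipients it rose as well, with 7.33, 6.87, 7.23 and 6.70 in knock-out grafts above 6.05, 6.47 and 6.36 in wild-type grafts (0.74 ± 0.16, adjusted p = 0.00587), also without any single array. Wild-type cells read 7.19, 6.43, 6.59 and 6.68 and overlapped both recipient groups. The difference from wild type was 0.31 ± 0.15 in knock-out grafts (adjusted p = 0.21; 0.46 and adjusted p = 0.0338 without wild-type replicate 1) and -0.43 ± 0.16 in wild-type grafts (adjusted p = 0.217). Of the T and natural killer (NK) cell markers, all 13 tested rose in the knock-out and 12 of 13 between the recipients, with summed levels of 742 to 794 against 60.4 to 64.0 in the knock-out fractions and 124 to 274 against 53.0 to 59.4 in the recipients. Against wild type, at 56.5 to 81.4, 12 of these 13 markers also rose in knock-out grafts, where Ltb did not pass. B cell markers, for 9 genes, rose in 7 cases in the knock-out and in 0 between the recipients (1 at an unadjusted p below 0.05 in limma's fit, median -0.19). The part of these cells in the Ltb result was not tested.

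Osm, whose product signals through gp130 receptors on stromal and blood cells, read 4.44, 4.03 and 3.82 in knock-out GPI-negative and 5.13, 4.95 and 5.12 in GPI-positive cells, without overlap, a fall of 0.97 ± 0.31 (adjusted p = 0.0211). That call was lost without GPI-negative replicate 3 (adjusted p = 0.0869), without GPI-positive replicate 1 (0.0615) or 3 (0.061), and with the GPI-positive arrays averaged (0.207). In batch 2 it read 5.28, 4.62, 4.55 and 5.56 in recipients of knock-out marrow, 5.09, 3.60 and 3.44 in recipients of wild-type marrow and 2.91, 3.0, 2.87 and 2.57 in wild type. As for Cxcl2, every recipient lay above wild type and replicate 1 of the wild-type grafts lay among the knock-out grafts. Osm rose 4.49-fold against wild type (log2 2.17 ± 0.27, adjusted p = 1.56e-05). Between the recipients the rise was 0.96 ± 0.29 and barely passed (adjusted p = 0.0456), and it passed in 5 of 11 alternative settings of the processing. It was 1.48 without wild-type graft replicate 1 (adjusted p = 0.000395), and it did not pass without wild-type graft replicate 2 (0.74, adjusted p = 0.234) or 3 (0.66, 0.284) or knock-out graft replicate 1 (0.87, 0.0927) or 4 (0.77, 0.155). Wild-type grafts against wild type differed by 1.21 ± 0.29 (adjusted p = 0.0501), which passed without wild-type graft replicate 3 (1.51, adjusted p = 0.032) and was 0.69 without replicate 1 (0.223).

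Thbs1, whose product activates latent transforming growth factor beta, read 4.63, 3.75 and 2.70 in knock-out GPI-negative and 4.96, 5.14 and 4.94 in GPI-positive cells. The groups did not overlap, though the 3 GPI-negative arrays spread widely. The fall was 1.32 ± 0.37 (adjusted p = 0.00963), and 0.82 without GPI-negative replicate 3, when it did not pass (adjusted p = 0.0844). It did not pass with the GPI-positive arrays averaged either (0.143). The dimmer probe set fell by 1.15 ± 0.27 (adjusted p = 0.00352 over probe sets). In recipients of knock-out marrow Thbs1 stood at 5.04, 4.80, 4.70 and 5.27, against 4.87, 3.41 and 3.24 in recipients of wild-type marrow and 4.28, 3.69, 4.20 and 3.76 in wild type. The differences of 1.12 ± 0.34 and 0.97 ± 0.32 both missed the threshold narrowly (adjusted p = 0.0528 and 0.0504). That between the recipients passed without wild-type graft replicate 1 (1.63, adjusted p = 0.00317) and was 0.81 without replicate 3 of that group (0.284). The dimmer probe set gave 0.66 ± 0.26 between the recipients (adjusted p = 0.19 over probe sets), which did not pass. Against wild type it gave 0.77 ± 0.24 and just passed (0.0498 over probe sets), where the brighter one did not (0.0642). Of 8 markers tested of megakaryocytes and platelets, which store thrombospondin 1, 4 rose and 0 fell in the knock-out, with summed levels of 56.2 to 92.1 in GPI-negative and 40.4 to 43.3 in GPI-positive cells, and 0 passed between the recipients in limma's fit (2 at an unadjusted p below 0.05, median -0.25). Their part in the Thbs1 result was not tested.

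The knock-out and recipient comparisons share no array, so the difference between them was tested directly as an interaction, the knock-out difference minus that between the recipients. It was negative and passed for 7 of the 10 genes, where 19% of all genes were called, 9.04% higher and 9.96% lower, with a median of -1.42 beside 0.02 over all genes. Cxcl2 gave -2.74 ± 0.55 (adjusted p = 0.00142), Thbs1 -2.43 ± 0.50 (0.0018), Il1b -2.13 ± 0.51 (0.0054), Osm -1.93 ± 0.42 (0.0028), Ccl9 -1.49 ± 0.26 (0.00045), Ccl3 -1.35 ± 0.37 (0.0128) and Ccl6 -0.78 ± 0.26 (0.0439). The calls of Cxcl2, Thbs1, Il1b, Osm, Ccl9 and Ccl3 held without any single array, while that of Ccl6 was lost without 9 of the 13 arrays in the comparison. With the knock-out GPI-positive arrays averaged, 4 genes remained past the threshold, and Ccl3 (adjusted p = 0.1), Ccl6 (0.209) and Il1b (0.0615) did not. Ltb gave 0.37 ± 0.24 (adjusted p = 0.304), Ccl4 -0.40 ± 0.24 (0.283) and Tnf -0.16 ± 0.28 (0.739). The interaction also spans the batches, so batch and mouse model cannot be told apart in it.

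**Figure D3:**
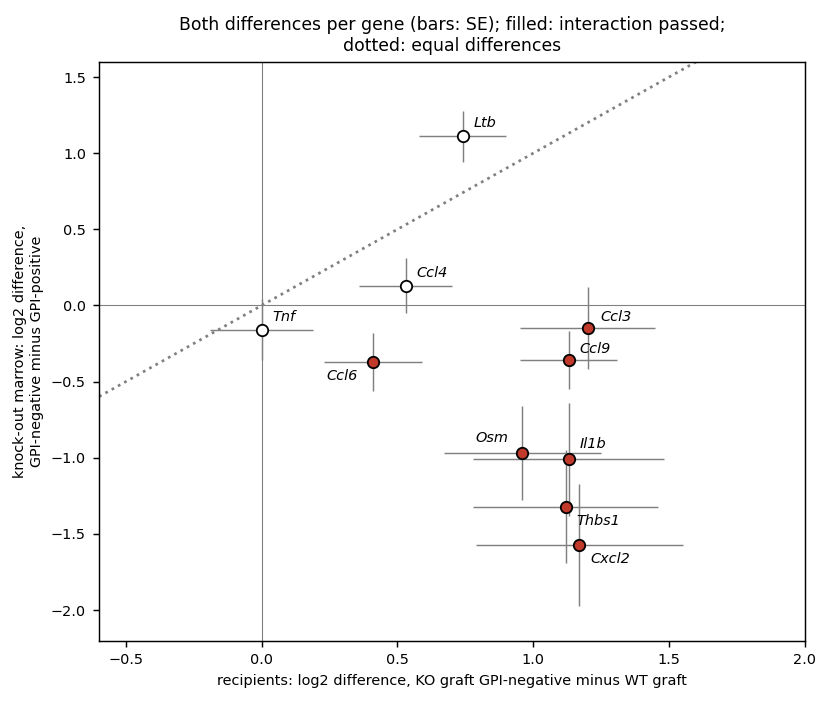
For each of the 10 genes, the log2 difference between the knock-out fractions (y axis) against that between the recipients (x axis), with SE bars; filled points passed the interaction test and the dotted line marks equal differences. Cxcl2, Thbs1, Il1b and Osm lie at the lower right, below -0.9 on the y axis and above 0.9 on the x axis, and Ltb at the upper right.

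Receptors through which the mediators act changed in both directions. Of 15 tested, 7 fell and 2 rose in the knock-out fraction without GPI (median -0.35). Over all genes 29.5% were called in the knock-out, 7.39% between the recipients, 12.4% against wild type and 19% in the interaction. Il1r2, the decoy receptor of interleukin 1, fell 2.51-fold (log2 -1.33 ± 0.22), Ccr1, a receptor of Ccl3, Ccl6 and Ccl9, 2.23-fold (-1.16 ± 0.19) and Cxcr2, the receptor of Cxcl2, 2.16-fold (-1.11 ± 0.21). Lifr and Il6st, the latter encoding gp130, rose by 1.33 ± 0.16 and 1.08 ± 0.18. Between the recipients 3 rose and 0 fell (median 0.25), namely Lifr by 1.16 ± 0.15, Tnfrsf1b, a receptor of tumour necrosis factor, by 0.81 ± 0.20 and Il6st by 0.59 ± 0.17. Against wild type the same 3 rose and Cd36, a receptor of thrombospondin 1, fell 2.92-fold. The interaction was negative and passed the threshold for 7 of the 15 (median -0.52), including Il1r2 (-1.99 ± 0.30), Ccr1 (-1.69 ± 0.26) and Cxcr2 (-1.54 ± 0.29).

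Of 16 further chemokine genes tested, 5 rose in knock-out GPI-negative cells and 2 between the recipients, and 0 fell in either (medians -0.02 and -0.05). Over all genes 29.5% were called in the knock-out, 14.8% higher, and 7.39% between the recipients, 3.95% higher. Against wild type the share was 12.4%. Xcl1, lymphotactin, rose by 2.31 ± 0.20 and 0.87 ± 0.18, and Ccl5 rose too, by 4.52 ± 0.30 and 2.91 ± 0.28. Ppbp, a platelet chemokine, rose by 1.28 ± 0.43 in the knock-out. Of 16 further cytokine genes, 5 rose and 2 fell in the knock-out. Ifng, which encodes interferon gamma, rose by 0.98 ± 0.19 and Lta, the partner of lymphotoxin beta, by 0.69 ± 0.22, while Tnfsf13b, the B cell factor BAFF, fell by 1.38 ± 0.15 and Il15, a growth factor of NK cells, by 1.15 ± 0.16. Between the recipients 0 of these 16 passed in limma's fit (5 at an unadjusted p below 0.05), and against wild type Il6 rose by 0.67 ± 0.17 and Il12a fell by 0.58 ± 0.15.

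Of 16 genes of NF-kappaB signalling tested, 2 rose and 2 fell in the knock-out (10 at an unadjusted p below 0.05), 1 rose between the recipients and 1 against wild type. Over all genes 29.5%, 7.39% and 12.4% were called in these comparisons. Ikbkb, the kinase that releases NF-kappaB from its inhibitor, rose by 0.76 ± 0.10, 0.49 ± 0.09 and 0.61 ± 0.09 in these comparisons, and Myd88, the adaptor of interleukin 1 and Toll-like receptors, fell by 0.41 ± 0.12 in the knock-out. Feedback inhibitors and antagonists, 18 tested with the receptor gene Il1r2 counted again, gave 5 higher and 5 lower in the knock-out. Il1rn, the natural antagonist of interleukin 1, fell by 1.15 ± 0.16 and Irak3, an inhibitor of its signalling, by 1.31 ± 0.17, whereas Tnfaip3, the inhibitor A20, rose by 0.67 ± 0.13 and Zfp36l1, which promotes decay of cytokine transcripts, by 1.21 ± 0.15. Between the recipients Bcl3 rose (0.73 ± 0.15), and against wild type Dusp1, a phosphatase of stress kinases, rose 3.52-fold, with Zfp36 and Bcl3 also higher. Of 11 genes for processing and release of cytokines, 6 fell in the knock-out and 0 rose, led by the granule proteases Elane (-1.90 ± 0.15), Ctsg (-1.33 ± 0.12) and Prtn3 (-1.11 ± 0.13). These 3 were also lower between the recipients, where Rhbdf2, a cofactor of the enzyme that sheds tumour necrosis factor, rose by 0.67 ± 0.20.

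Markers of myeloid cells also changed, not always in the direction of the members. Elane, Ctsg, Prtn3 and Cxcr2, named above, are also on the neutrophil list, so they are counted in both places. Over all genes 29.5% were called in the knock-out, 7.39% between the recipients and 12.4% against wild type. Neutrophil markers fell in 11 of 12 cases in the knock-out, with a summed linear level of 7354 to 8674 in GPI-negative and 13465 to 13857 in GPI-positive cells. Monocyte markers gave 1 higher and 2 lower of 9 there, at 503 to 782 and 688 to 721. Between the recipients monocyte markers rose in 8 of 9 cases, at 615 to 996 against 368 to 523, and neutrophil markers fell in 4 of 12, at 8699 to 10832 against 9171 to 10595. Against wild type 9 of 9 monocyte markers rose (381 to 521 in wild type). Macrophage markers fell in 7, 5 and 8 of 11 cases in the knock-out, between the recipients and against wild type. C1qa, C1qc and Mertk were below the 40th percentile in both GPI-negative groups, and Siglec1 was below it in every group. Dendritic cell markers rose in 5, 6 and 6 of 9 in the same order. The part of these cells in the differences of Ccl9, Cxcl2, Il1b, Osm and Thbs1 was not tested. Replicate 1 of the wild-type grafts had the highest Cxcl2, Osm, Il1b, Thbs1 and Ccl3 of its group. Its summed marker level was 492 for monocytes (368 and 523 on the other 2 arrays) and 10595 for neutrophils (10312 and 9171). It was 215 for basophils and mast cells (180 and 195), 366 for dendritic cells (537 and 514) and 48.1 for macrophages (51.5 and 54.7). The part of these cells in the values of that array was not tested.

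**Figure D4:**
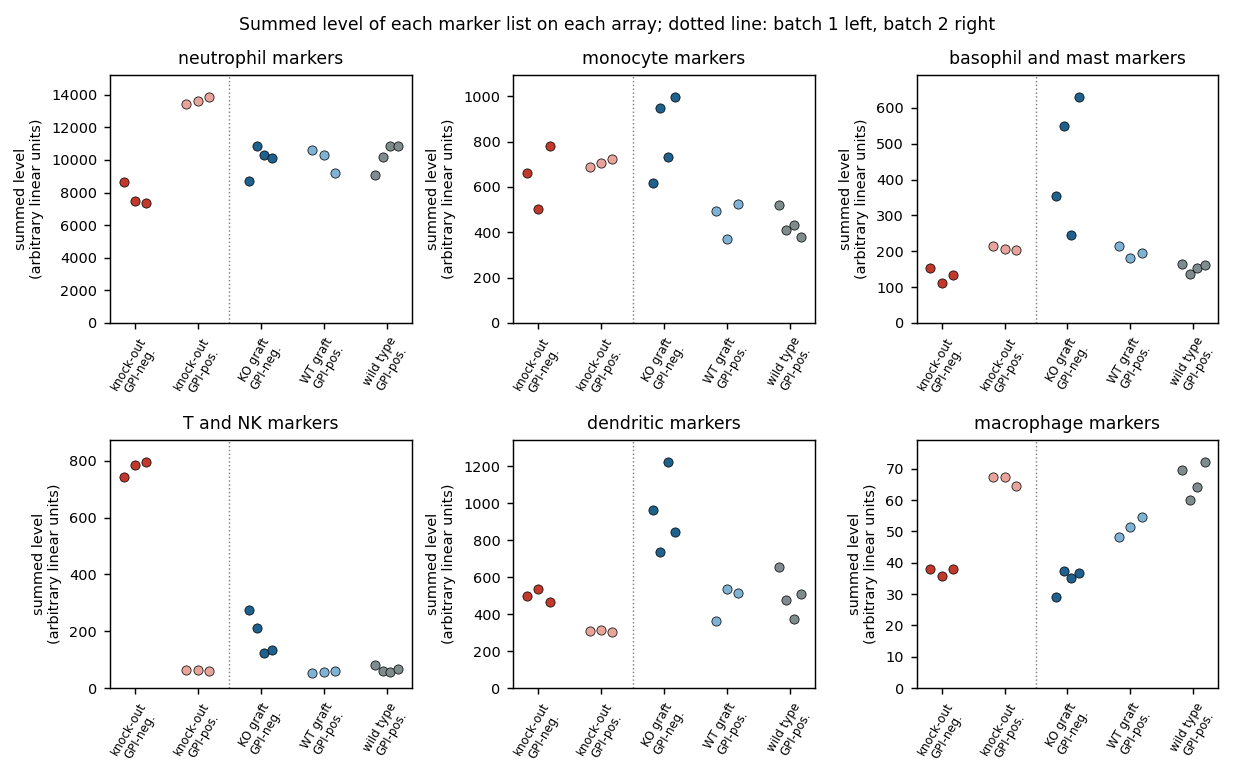
Summed level of 6 cell type marker lists (y axis, antilog of the deposited values, arbitrary linear units) on each of the 17 arrays by group (x axis). Neutrophil markers are at 7354 to 8674 in knock-out GPI-negative and 13465 to 13857 in GPI-positive cells, and basophil and mast cell markers reach 630 in recipients of knock-out marrow.

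The patterns of the members were also set against all genes. After subtracting batch means, the Pearson correlation over the 17 arrays, given as a description over arrays that share groups, was highest for Cxcl2 with Osm (0.983), Fos (0.966) and G0s2 (0.947), and the genes nearest to Osm were Cxcl2 again, Fos (0.978) and G0s2 (0.959). Fos is an immediate early transcription factor gene and G0s2 an inhibitor of lipolysis. Il1b was nearest to Cebpb (0.945), a transcription factor gene of myeloid cells, Trem1 (0.938) and Rnf103 (0.937), and Thbs1 to Coq10b (0.900), Trem1 (0.891) and Dgat1 (0.878). Ccl9 was nearest to Ms4a6c (0.970), Cd68 (0.968) and Ms4a8a (0.966), of which the first 2 are on the monocyte marker list. Ccl3 was nearest to Hpse (0.932), Hsd3b7 (0.923) and Iqgap2 (0.905), Ccl4 to Leprotl1 (0.883), Selplg (0.871) and Ms4a4c (0.798), and Ccl6 to Cds2 (0.912), Notch2 (0.911) and Sat1 (0.893). Ltb was nearest to Tbc1d10c (0.943), Ifi213 (0.936) and Gimap8 (0.928), the last a GTPase gene of lymphocytes. The nearest genes to Tnf reached 0.797 (4930573G07Rik), 0.721 (Gm11696) and 0.706 (Mustn1).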

How the data were processed

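Expression was measured on 17 one-colour arrays, with 1 deposited value per probe set and array. The submitters' processing notes name GCOS 12, while the background correction and the summary of probes are not stated. The deposited values run from 0 to 3.895 and were taken as log10 from their range and the slopes of spike-in controls. Sorted values were identical between the arrays of a batch (largest difference 0), so the authors had normalized each batch separately to 1 distribution. The number of arrays limits the precision.

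Values were converted to log2 and each array was centred, since batch medians differed by 0.427. A probe set was kept if at least 3 arrays had it at or above the 40th percentile (32426 kept). Of the 45037 probe sets that are not controls, 34945 had 1 symbol, 932 several and 9160 none. The brightest kept probe set stood for a gene (14245 genes). limma 3.58.1 in R 4.3.3 fitted 5 group means over all 17 arrays, with a trend in eBayes and Benjamini-Hochberg adjustment over all genes at 0.05. Steps were tested on simulated data.

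Named genes were the 10 members, up to 3 genes per pathway list, comparison and direction with the largest change past the threshold, and the 3 genes correlating best with each member. Members and lists were chosen with earlier results of these data known. Alternatives concerned normalization, filtering, probe sets, weights, pairing, averaging and left-out arrays.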

Additional observations from a re-analysis of the deposited data

Results flagged for a closer look

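For 7 genes the difference between GPI-negative and GPI-positive cells in knock-out marrow differed from that between the recipients of knock-out and wild-type marrow, by the interaction test in limma's fit, where 19% of all genes passed. The log2 interaction was -2.74 for Cxcl2, -2.43 for Thbs1, -2.13 for Il1b, -1.93 for Osm, -1.49 for Ccl9, -1.35 for Ccl3 and -0.78 for Ccl6. For Cxcl2, Osm, Il1b and Thbs1 the knock-out difference was below 0 and past the threshold, and for Ccl3, Ccl9 and Osm the difference between the recipients was above 0 and past it.

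A search for arrays far from the rest covered 26 sets of 4 arrays (each of the 13 probe sets in each group of 4) and found 0, where chance gives about 1 in 20. Groups of 3 arrays, which are both knock-out fractions and the wild-type grafts, were not searched.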

How the results depend on the processing

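Of 970 differences of the 10 genes recomputed under the alternatives, 880 kept their direction and side of the threshold, 45 lost a call, 30 gained one and 15 changed sign. With the 3 knock-out GPI-positive arrays averaged, 1 of the 10 genes was called in the knock-out and 4 in the interaction, and over all genes 1674 and 987. The stricter filter at the 60th percentile gave 7 calls between the recipients and 1 for wild-type grafts against wild type, and array weights gave 7 and 2. With each of the 32426 kept probe sets as its own row, 8238 calls were made in the knock-out. This setting gave 2647 for knock-out grafts against wild type, 200 for wild-type grafts against wild type and 4852 in the interaction. The main fit, over 14245 genes, gave 4206, 1764, 120 and 2707 in the same order, so the totals differ. Calls over all genes for wild-type grafts against wild type were 353 with array weights and 59 without the trend.

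Leaving out 1 array gave 2 to 6 of the 10 genes in the knock-out, 3 to 7 between the recipients, 5 to 6 for knock-out grafts against wild type, 0 to 2 for wild-type grafts against wild type and 6 to 7 in the interaction. Over all genes the ranges were 3305 to 3900, 677 to 1309, 1311 to 1726, 21 to 89 and 2100 to 3068 in the same order. The values that changed sign were close to 0 in the full data. Tnf between the recipients was -0.0003226 with cyclic loess and -0.009678 with the replicate block, and ran from -0.1571 to 0.1591 without 1 array. For wild-type grafts against wild type Tnf was -0.0259 with array weights and ran from -0.09891 to 0.2173 without 1 array, Ccl3 from -0.05932 to 0.2327 and Thbs1 from -0.6616 to 0.1548. Tnf in knock-out grafts against wild type ran from -0.06752 to 0.1558, and Ccl4 in the knock-out from -0.01039 to 0.2381. The cause of these changes was not tested.

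Arrays with the same replicate number did not deviate together (correlations -0.18 to 0.098), so the numbers gave no sign of pairing. With 3 or 4 arrays per group and little spread among the knock-out GPI-positive arrays, this check cannot exclude it. A replicate block gave 5, 5, 6, 0 and 6 calls among the 10 genes in the order above, 3942, 807, 1524, 45 and 2196 over all genes.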
